A study of Homo sapiens with 4 samples.

Results

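The transcriptome of wild-type IMR-90 cells at confluence is described here from 2 of the 4 RNA-seq libraries of the study, the other 2 being from RB1 KO cells. IMR-90 is a human fetal lung fibroblast line of finite lifespan in culture. The wild-type cells carried no edit, were grown in high-glucose DMEM with 15% FBS and were confluent when harvested, and no transduced and selected control is described for them. The 2 libraries were selected by the genotype in their labels, and all 57820 gene IDs of the count table were kept, so no measured value entered the selection. No comparison with RB1 KO was made. The labels do not say whether the replicates came from separate cultures, so the spread between them may be technical.

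Fibroblasts are the connective tissue cells that build and remodel the extracellular matrix. They secrete fibrillar collagens, fibronectin and matricellular proteins, and they pull on that matrix through actin stress fibres. Dense fibroblast cultures slow their division through contact inhibition, and the transcription factors and HOX genes that a fibroblast keeps in culture are known to carry a memory of its place of origin in the body.

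The libraries held 32827737 counts (replicate 1) and 30873239 counts (replicate 2) in genes. Each gene is given as its count scaled to a library total of 1000000 (CPM), so that 1 CPM corresponds to about 32.8 and 30.9 reads, with a counting error of 17.5% and 18.0%. A count of 0 allows up to 3 counts, or 0.0914 CPM in replicate 1 and 0.0972 CPM in replicate 2. These limits cover counting error only, as reads were not collapsed by molecule. They do not cover reads dropped because they mapped to several places, which lowers the counts of genes with near-identical copies. CPM is a share of the library and grows with transcript length, so an order of genes by CPM is an order of reads. For levels of different genes TPM is given, which is scaled in the same way after each count is divided by the summed exon length of its gene, and with the length of the longest transcript where that changes an order or moves a ratio by over 1.5 times.

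Of the 57820 gene IDs, 13273 (23.0%) had at least 1 CPM in both libraries, and these are called detected. Among 19404 protein-coding genes 11669 were detected (60.1%), which is the share to set beside the detected members of each list of such genes below. Counts were concentrated in few genes. The 10 most counted genes took 13.2% and 12.8% of all gene counts in replicates 1 and 2, the 100 most counted took 28.7% and 28.5%, and 50% of the counts fell in 622 genes in replicate 1 and 637 in replicate 2. At the other end, 1875 genes reached 100 CPM and only 71 reached 1000 CPM in both. The libraries shared 94 of their 100 most counted genes.

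**Figure D1:**
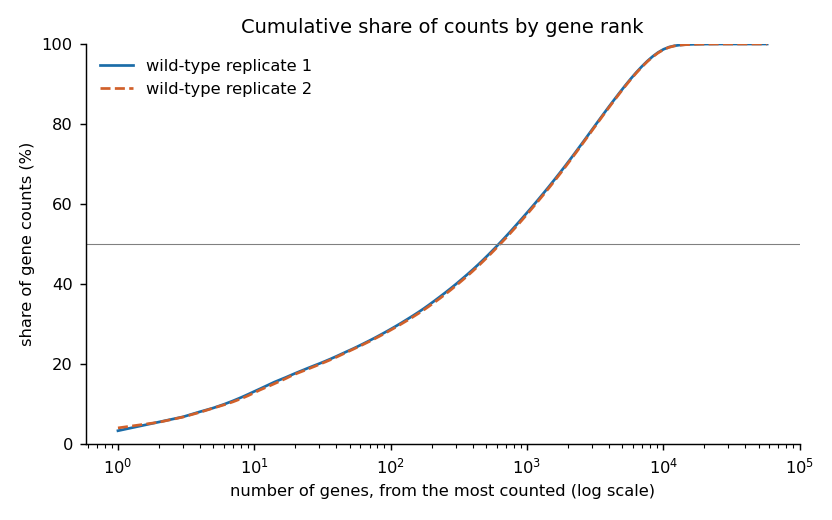
Cumulative share of gene counts (%) against the number of genes taken from the most counted downwards (log axis), with a solid line for wild-type replicate 1 and a dashed line for replicate 2. The curves nearly coincide and cross 50% at 622 and 637 genes.

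Secreted matrix genes led the transcriptome. IGFBP5, an insulin-like growth factor binding protein that is deposited in the matrix, was the most counted gene of all, with 33435 CPM in replicate 1 and 40433 CPM in replicate 2. It lies at chr2:217536828-217560272 on the minus strand (GRCh37) and alone took 3.34% and 4.04% of gene counts. It was also the protein-coding gene with the highest level per length, at 18707 and 23659 TPM. The libraries differed by 0.27 on the log2 scale for this gene. Their median absolute difference was 0.09 over genes at a mean of 10 CPM or more and 0.13 over the 76 genes at 1000 CPM or more. ACTG1 (-0.27), COL3A1 (0.26) and THBS1 (-0.25) differed about as much.

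COL1A1 and COL1A2, the chains of type I collagen, followed among protein-coding genes. COL1A1 (chr17:48261462-48278993, minus strand) had 12815 and 12966 CPM, and COL1A2 (chr7:94024207-94060539, plus strand) had 9350 and 10401 CPM. Per length, COL1A1 stood above COL1A2 by 1.65 times in replicate 1 and 1.496 times in replicate 2, where the assembled protein holds more alpha-1 than alpha-2 chains. FN1, which encodes fibronectin, had 8286 and 8188 CPM. THBS1 encodes thrombospondin 1, a matricellular activator of latent TGF-beta, and had 8761 and 7355 CPM. The libraries overlapped closely for COL1A1 and FN1 and were further apart for THBS1.

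The rest of the 20 most counted nuclear protein-coding genes fell into few groups. COL6A3, COL3A1, COL12A1, TGFBI and TNC encode matrix proteins. FLNA, ACTB, ACTG1, MYH9, VIM and AHNAK encode filamins, actins, non-muscle myosin, the intermediate filament vimentin and a large scaffold protein. EEF1A1 and EEF2 encode elongation factors, GAPDH a glycolytic enzyme and ITGB1 the beta chain shared by many matrix receptors. VIM had 2982 and 2627 CPM. Per length the order changed, since small abundant proteins moved up. TMSB10, an actin-monomer binding protein, reached a mean of 10191 TPM and FTL, the ferritin light chain, 6976 TPM, both above COL1A1 at 5297 TPM. With the longest transcript as length FTL lay below COL1A1, at 5499 against 6358.5 TPM. ACTB, GAPDH, COL3A1, COL1A2, LGALS1 and THBS1 completed the 10 highest, between 4375 and 3250 TPM, and with the longest transcript EEF1A1 and ACTG1 took the places of COL3A1 and THBS1.

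**Figure D2:**
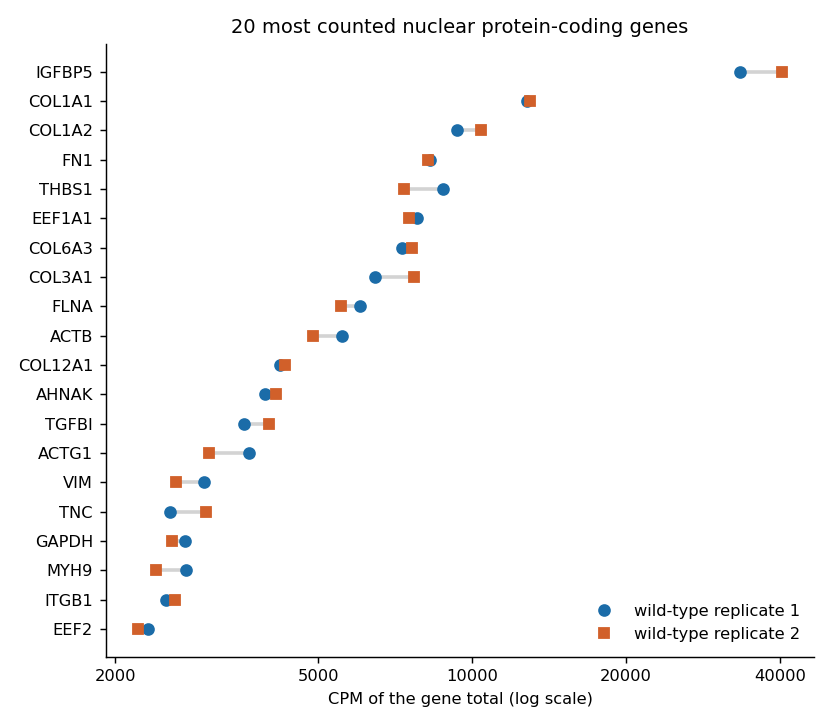
CPM of the gene total (log axis) of the 20 most counted nuclear protein-coding genes, with circles for wild-type replicate 1 and squares for replicate 2 joined by a grey line. IGFBP5 stands apart from the rest at 33435 and 40433 CPM, and the libraries lie closest for COL1A1 and FN1.

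The sequences just before the start of several of these genes are shown because a TATA box, the element that positions the transcription start, was frequent among the most counted genes. They are taken from RefSeq (GRCh38.p14), cover 100 bases up to the start, and run 5′ to 3′ on the gene's strand. Capitals mark TATAA. They also mark CCAAT, which reads as ATTGG where it lies on the opposite strand. The coordinates are chr2:216695550-216695649 (minus) for IGFBP5, chr2:215436069-215436168 (minus) for FN1, chr15:39580979-39581078 (plus) for THBS1, chr6:73521033-73521132 (minus) for EEF1A1 and chr9:115118158-115118257 (minus) for TNC.
IGFBP5: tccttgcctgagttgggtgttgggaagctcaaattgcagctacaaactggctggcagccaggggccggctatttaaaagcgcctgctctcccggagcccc
FN1: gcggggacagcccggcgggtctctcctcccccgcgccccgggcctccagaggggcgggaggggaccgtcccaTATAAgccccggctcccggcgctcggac
THBS1: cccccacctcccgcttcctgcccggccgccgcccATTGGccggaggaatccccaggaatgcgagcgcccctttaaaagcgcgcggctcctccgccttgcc
EEF1A1: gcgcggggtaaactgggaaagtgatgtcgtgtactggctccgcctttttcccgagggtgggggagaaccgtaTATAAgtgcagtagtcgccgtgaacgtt
TNC: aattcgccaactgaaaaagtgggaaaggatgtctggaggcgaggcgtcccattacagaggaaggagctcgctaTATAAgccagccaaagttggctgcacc

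The letters TATAA begin 28 bases before the start in FN1 and EEF1A1 and 27 bases before it in TNC, and they are absent from this place in IGFBP5 and THBS1. Of the 100 most counted nuclear protein-coding genes 83 had a promoter in the RefSeq table, and 18 of these (21.7%) held TATAA on the plus strand beginning 40 to 20 bases before the start. The share was 2.59% over the 9581 detected protein-coding genes in the table, 13.1% over the 2947 protein-coding genes with 0 counts in both libraries and 4.22% over all 27305 promoters. COL1A1 and COL1A2 had no promoter in the RefSeq table, so they were not examined for TATAA. A match is a description of the letters and not evidence of a bound factor.

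Taken as 5 lists, 158 matrix genes held 14.4% ± 0.746 (SD, n = 2) of all gene counts, with 13.9% in replicate 1 and 14.9% in replicate 2. Of these genes 129 (81.6%) were detected, against 60.1% of all protein-coding genes. Collagens made up 5.28% and 5.61% of counts and 27 of 40 were detected. Matrix glycoproteins made up 7.01% and 7.70%, of which IGFBP5 was 50.2%, and 47 of 49 were detected.

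The 40 collagens ranged from the type I chains down to COL4A3, COL6A6 and COL23A1, which had 0 counts in both libraries. COL3A1, the type III collagen of distensible tissue, had 6450 and 7698 CPM. COL6A3, of the beaded filaments around cells, had 7274 and 7615 CPM, and COL12A1, which decorates fibrils, had 4206 and 4295 CPM. The basement membrane pair COL4A1 and COL4A2 had 2124 and 2216 CPM and 2191 and 2233 CPM. COL2A1 and COL10A1 of cartilage and COL17A1 of epithelial hemidesmosomes stayed at or under 0.227 CPM in each library. COL6A1 and COL6A2, partner chains of type VI collagen, were at nearly equal levels per length, with a ratio of 0.989 in replicate 1 and 1.00 in replicate 2.

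Glycoproteins after IGFBP5, FN1, THBS1, TGFBI and TNC were led by SPARC, a collagen-binding matricellular protein, at 1960 and 1939 CPM. CCN2, the growth factor-like matricellular protein also called CTGF, had 1322 and 1131 CPM. Fibrillin 1 (FBN1) of elastic microfibrils had 1028 and 1186 CPM, whereas elastin itself (ELN) had 26.3 and 27.8 CPM, which per length was a mean of 15.2 TPM against 221.5 TPM for FBN1. The proteoglycans decorin (DCN) and versican (VCAN) had 1341 and 1494 CPM and 827 and 1037 CPM, whereas aggrecan (ACAN) of cartilage had 0.152 and 0.356 CPM, a mean of 0.0870 TPM against 406 TPM for DCN (0.0834 against 604 TPM with the longest transcript). All 23 genes of collagen processing were detected, led by the collagen chaperone SERPINH1 with 978 and 906 CPM and by P4HB, a subunit of prolyl hydroxylase, with 946 and 917 CPM.

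Among matrix proteases and inhibitors 28 of 34 were detected. ADAMTS1 was the most counted, with 1774 and 1977 CPM. The gelatinase MMP2 had 659 and 735 CPM and its activator MMP14 had 446 and 435 CPM, but the gelatinase MMP9 and the epithelial protease MMP7 had 0 counts in both. The inhibitor TIMP1 exceeded MMP2 per length by 3.35 times in replicate 1 and 2.64 times in replicate 2. MMP1, the interstitial collagenase, had 46.8 and 31.6 CPM, and MMP3 had 4.11 and 3.34 CPM.

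The label was checked against marker genes. All 27 genes of the mesenchymal and fibroblast list were detected, against 60.1% of all protein-coding genes. CD44, the hyaluronan receptor, had 1747 and 1552 CPM. The PDGF receptor PDGFRA had 938 and 1214 CPM and PDGFRB had 332 and 359 CPM. LRP1, LGALS1 and CAV1 were the others among the most counted, and THY1, a surface marker of many fibroblasts, had 460 and 451 CPM. The least counted were SNAI1, at 6.34 and 6.45 CPM, and S100A4, at 6.91 and 7.32 CPM.

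Of 24 transcription factors listed for developing lung mesenchyme 19 were detected (79.2%), against 60.1% of all protein-coding genes. The list also holds NKX2-1, a factor of lung epithelium. FOXF1, a hedgehog-induced factor of lung and gut mesenchyme, was the most counted with 355 and 362 CPM (mean 377 TPM), followed by TBX2 with 264 and 277 CPM and TCF21 with 170 and 216 CPM. Per length TCF21 had 167 and 222 TPM and TBX2 157 and 172.5 TPM, which overlap. MEIS1 (151 and 167 CPM), TBX3 (132 and 160 CPM), FOXP1 (149 and 141 CPM) and PITX1 (96.3 and 89.2 CPM) came next by reads, but per length FOXP1 was at a mean of 16.4 TPM and PITX1 at 99.6 TPM (59.0 and 116 TPM with the longest transcript). GLI3 had 65.8 and 75.8 CPM and GLI2 58.3 and 61.3 CPM, while GLI1, a transcriptional target of hedgehog signalling, had 3.29 and 3.34 CPM. SOX9, TBX5, MEIS2, FOXF2 and GATA6 lay between 11.5 and 50.7 CPM in each library. TBX4, which marks lung mesenchyme together with TBX5, was low but above the detection limit, with 8.86 and 9.85 CPM (chr17:59529765-59562471, plus strand). Its level per length, a mean of 8.67 TPM, was below the 38.98 TPM of TBX5. FOXP2 had 7.13 and 8.68 CPM. NKX3-2 and LHX2 were under 1 CPM. NKX2-1, which specifies lung epithelium, GATA4 and WT1 had 0 counts in both libraries, although NKX2-1 shares 32.6% of its exon bases with another gene on its strand, where reads are not counted.

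The HOX genes showed a sharp boundary. HOX genes lie in 4 clusters, are numbered by paralog group along each cluster, and are used along the body axis in that order. In these cells 13 of the 14 genes analysed from groups 1 to 8 of the HOXA and HOXB clusters were detected, the exception being HOXB1. HOXA5, needed for lung development in mice, had 55.3 and 71.5 CPM and the highest level per length, a mean of 137 TPM. HOXB3 had 57.5 and 68.7 CPM, HOXB5 32.0 and 31.9 CPM, HOXB6 31.6 and 29.96 CPM, HOXA3 29.0 and 37.2 CPM and HOXB2 27.1 and 24.1 CPM. HOXB4 and HOXB7 were between 10.97 and 16.3 CPM, and HOXA2, HOXA4, HOXA6, HOXA7 and HOXB8 between 2.19 and 7.09 CPM. None of the 16 genes of groups 9 to 13 was detected. Together these 16 reached 0.487 and 0.421 CPM, against 284 and 319.6 CPM for the 22 genes analysed from groups 1 to 8. In the HOXC cluster only HOXC8 (2.92 and 3.60 CPM) and HOXC6 (1.40 and 1.33 CPM) were detected, and all 9 genes of the HOXD cluster had 0 counts in both libraries, with HOXD10 and HOXD11 sharing 18.2% and 21.4% of their exon bases with another gene. Of the long noncoding RNAs of the clusters, HOTAIRM1 of the HOXA cluster had 10.5 and 11.7 CPM. HOTTIP, HOTAIR and HAGLR, which lie at HOXA13, in HOXC and in HOXD, were at 0. HAGLR overlaps HOXD3 and HOXD1, so its 0 goes with the whole HOXD cluster and not with the paralog groups.

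**Figure D3:**
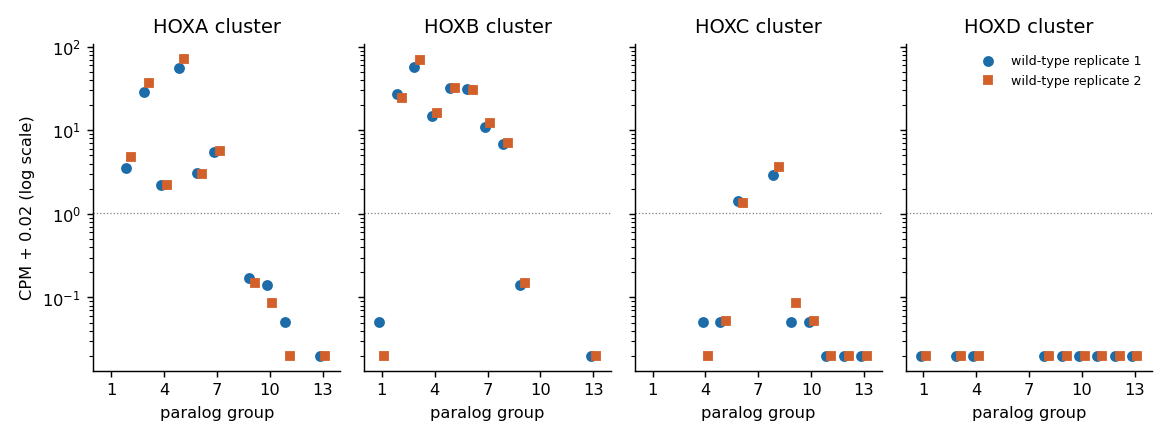
CPM plus 0.02 (log axis) of 38 HOX genes by paralog group in each of the 4 clusters, with circles for wild-type replicate 1, squares for replicate 2 and a dotted line at 1 CPM. Detected genes lie in groups 1 to 8 of HOXA, HOXB and HOXC, and the 9 HOXD genes sit at 0 counts.

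Markers of other cell types were mostly at or near 0. Of 212 such genes, 38 were detected and 98 had 0 counts in both libraries, and their summed share was 0.167% and 0.153% of counts. Defining markers at 0 included CDH1 and the surfactant genes SFTPA1, SFTPB, SFTPC and SFTPD of epithelium, CDH5 and CLDN5 of endothelium, CD3E and MS4A1 of lymphocytes, ALB of liver and SOX10 of neural crest derivatives. PTPRC, the common leukocyte antigen, had 0 and 0.0324 CPM. No erythroid, liver, pancreas, kidney, germ cell or pluripotency marker was detected.

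The detected exceptions included 7 of 24 muscle genes and 6 of 14 genes of the pericyte and mesothelial list. They also included 7 of 22 cartilage, bone and fat genes and 7 of 25 neural and glial genes, the latter at means of up to 4.58 CPM. Some markers stand in other lists as well, with ACTG2, LMOD1 and MYH11 among the contractile genes and SOX9 among the lung mesenchyme factors. ACTG2, the enteric smooth muscle actin, had 432 and 320 CPM, MYOCD, a smooth muscle coactivator, had 69.4 and 95.6 CPM, and LMOD1 had 82.4 and 67.3 CPM, while MYH11, the smooth muscle myosin heavy chain, had 26.4 and 19.9 CPM. MYOD1, MYOG and MYF5 of skeletal muscle were at or under 0.0648 CPM. The pericyte genes MCAM (202 and 176 CPM), NOTCH3 (111 and 108 CPM) and CSPG4 (98.2 and 81.9 CPM) were detected as well. TEK, the angiopoietin receptor, had 122 and 126 CPM with CDH5, ERG and EMCN at 0, and MITF had 67.0 and 72.0 CPM with TYR, DCT and SOX10 at 0. KRT18 and KRT8, the keratins of simple epithelia, had 39.4 and 28.5 CPM and 13.3 and 12.5 CPM, with EPCAM at 0.396 and 0.551 CPM. SOX9, SOX6 and MATN3 of cartilage were between 42.3 and 72.6 CPM, whereas COL2A1 was at 0 and 0.0324 CPM.

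**Figure D4:**
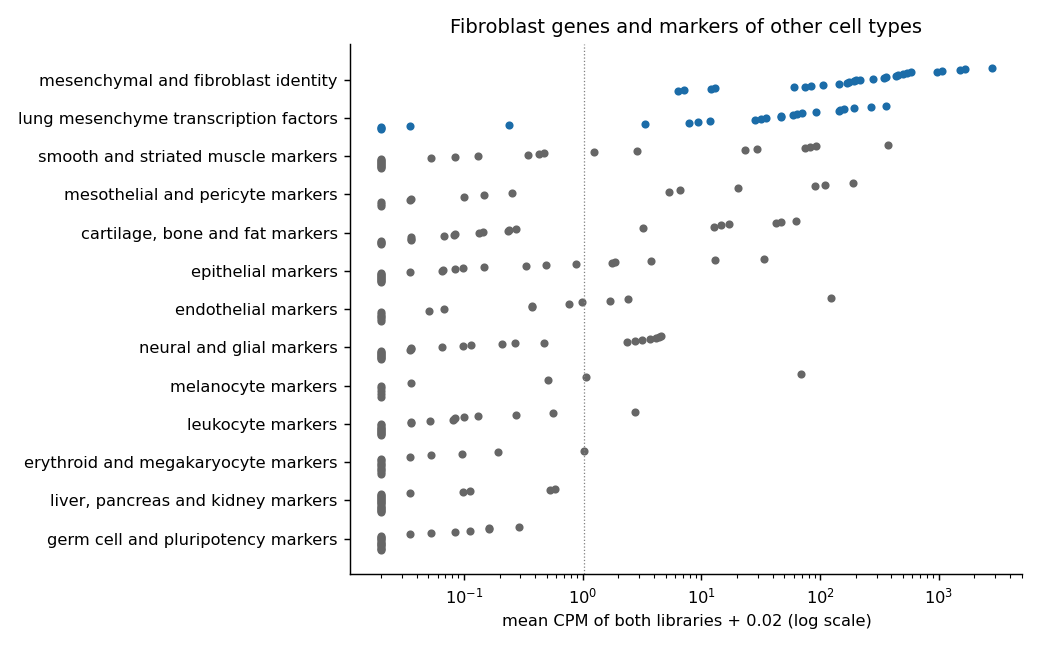
Mean CPM of both libraries plus 0.02 (log axis) of each gene in 2 fibroblast lists (blue) and 11 lists of other cell type markers (grey), with a dotted line at 1 CPM. All genes of the fibroblast list lie to the right of the line, and most markers of other types sit at or near 0 counts, with TEK and MITF as isolated points.

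The contractile apparatus was abundant. The 44 cytoskeletal and contractile genes took 4.04% and 3.56% of counts, and 42 were detected. FLNA, which cross-links actin at adhesions, had 6043 and 5536 CPM, ACTB had 5558 and 4873 CPM and ACTG1 had 3663 and 3047 CPM. MYH9, TPM4 and MYLK were the next most counted. The myofibroblast genes ACTA2, smooth muscle alpha-actin, and TAGLN had 463 and 326 CPM and 891 and 654 CPM. ACTA1 of skeletal muscle was at 0.0305 and 0.0324 CPM.

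Of 46 growth factor and cytokine ligands 42 were detected (91.3%), against 60.1% of all protein-coding genes. GREM1, a secreted BMP antagonist, had 2003 and 1788 CPM. WNT5A, a non-canonical Wnt ligand of lung mesenchyme, had 728 and 866 CPM, and HGF and FGF7, ligands that mesenchyme supplies to epithelium, had 484 and 551 CPM and 339 and 382 CPM. DKK3 and SFRP1 had 594 and 562 CPM and 439 and 452 CPM. FGF10, the bud-inducing ligand of early lung, was near the limit, with 1.83 and 2.53 CPM. PDGFB was at 0.0914 and 0.0324 CPM. The cytokine LIF had 146 and 115 CPM. Of the interleukins and chemokines listed, IL11 had 111 and 133 CPM, CXCL12 104 and 121 CPM, CCL2 41.8 and 60.2 CPM and CXCL1 16.6 and 23.6 CPM. Lower were CXCL8 with 12.1 and 9.26 CPM, IL6 with 10.2 and 5.70 CPM and IL1B with 5.21 and 6.70 CPM. CXCL2 had 0.396 and 1.30 CPM, and CXCL5 and IL1A were under 1 CPM in both libraries.

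Genes of cell division were counted at confluence. All 43 genes of G1/S and DNA replication and all 57 genes of G2, mitosis and cell division were detected. Over all protein-coding genes 60.1% were detected. The lists of the tricarboxylic acid cycle (22 of 22) and the secretory pathway (37 of 37) were detected in full too, so detection is no measure of division. The summed share of the cell division genes was 0.573% of counts in replicate 1 and 0.510% in replicate 2. In bulk RNA, the number of dividing cells and the RNA of these genes per cell cannot be told apart. No dividing culture was measured that could serve as a scale. By FACS the paper placed most wild-type cells held at confluence in G1 and few in S phase. It does not say whether these were the cultures sequenced here. TOP2A, the topoisomerase of dividing cells, had 327 and 311 CPM and ranked 435th of all genes. MKI67, the proliferation antigen, had 256 and 228 CPM (rank 649), and STMN1, ANLN, CENPF and SMC4 lay between 166 and 229 CPM. In the replication list RRM2, a subunit of ribonucleotide reductase, was the most counted with 150 and 127 CPM, and RRM1, MCM7, MCM4, PCNA and TYMS lay between 75.5 and 109 CPM. Per length PCNA, TYMS and TK1 stood above RRM2, with means of 211, 120 and 106 TPM against 55.9 TPM. With the longest transcript RRM2 was at 109.7 TPM, above TK1 at 91.9 TPM and below PCNA at 171 TPM and TYMS at 142 TPM.

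Cell cycle inhibitors were counted beside them, in a list that also holds genes that are not inhibitors, such as CCND1. CDKN1A, the p53-induced inhibitor p21, had 423 and 474 CPM, and per length it stood 7.07 and 8.90 times above MKI67. CCND1, the D-type cyclin, had 591 and 491 CPM, GAS6 330 and 255 CPM, the p53 target MDM2 230.5 and 248 CPM, and CDK6 226 and 202 CPM. CDKN2A had 9.93 and 11.8 CPM, which sums transcripts of p16 and ARF. Of the pocket proteins, RB1 had 77.5 and 77.5 CPM, RBL2 62.5 and 75.4 CPM and RBL1 26.4 and 25.6 CPM. FOXO1 was at 0.244 and 0.551 CPM, with FOXO3 at 116 and 110.5 CPM, and per length the means were 0.249 and 54.7 TPM. TERT, the catalytic subunit of telomerase, had 0 counts in both libraries, while its RNA component TERC had 20.3 and 18.1 CPM. All 11 telomerase and shelterin genes listed other than TERT were detected.

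The upstream sequences of 4 of the most counted cell division genes are shown because they hold short motifs frequent in their list. All 4 genes were also lower in replicate 2, as were most genes of the list, with the list's values given after the noncoding genes. Whether the motifs go with that shift was not tested. The sequences are again 100 bases up to the start from RefSeq (GRCh38.p14), with capitals for CCAAT on either strand. Capitals also mark TTTGAA on either strand, which reads as TTCAAA where it lies on the opposite one. The 4 were chosen among those that hold TTTGAA within 250 bases, and in TOP2A it lies outside the bases shown. SMC4 and NCAPD2, which are more counted than PRC1, also hold TTTGAA and are not shown. ANLN has no CCAAT within 250 bases, and STMN1 and CENPF, which are not shown, have CCAAT and no TTTGAA. The motifs may overlap by shared letters, as they do in MKI67. The coordinates are chr17:40417897-40417996 (minus) for TOP2A, chr10:128126424-128126523 (minus) for MKI67, chr7:36389762-36389861 (plus) for ANLN and chr15:90994536-90994635 (minus) for PRC1.
TOP2A: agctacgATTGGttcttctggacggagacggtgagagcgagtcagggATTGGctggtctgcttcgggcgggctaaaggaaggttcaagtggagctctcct
MKI67: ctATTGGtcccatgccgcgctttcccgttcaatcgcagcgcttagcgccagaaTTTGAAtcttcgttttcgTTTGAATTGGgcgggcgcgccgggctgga
ANLN: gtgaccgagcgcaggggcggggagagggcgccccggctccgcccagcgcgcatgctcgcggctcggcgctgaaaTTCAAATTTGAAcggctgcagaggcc
PRC1: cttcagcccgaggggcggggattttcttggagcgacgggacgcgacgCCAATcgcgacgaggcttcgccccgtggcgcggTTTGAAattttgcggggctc

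Of the 57 genes of G2, mitosis and cell division, 49 had a promoter in the table. CCAAT stood within 250 bases before the start, on either strand, in 36 of them (73.5%), and TTTGAA in 28 (57.1%). Over the detected protein-coding genes the shares were 35.3% and 8.50%, and over all promoters 33.0% and 13.6%. TATAA at its usual place was found in 1 of the 49. Both motifs are known in promoters of genes used in G2 and mitosis.

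Genes of central metabolism were broadly expressed. Glycolysis and lactate genes took 0.990% and 0.935% of counts, and 29 of 36 were detected (80.6%), against 60.1% of all protein-coding genes. GAPDH had 2736 and 2583 CPM, PKM 1848 and 1827 CPM and ENO1 1114 and 967 CPM, with LDHA, ALDOA and TPI1 next. Isoforms of other tissues were at or near 0, with the liver form PKLR and the testis form LDHC at 0 and HK3 at 0 and 0.0648 CPM. Per length LDHA exceeded LDHB by 1.35 and 1.37 times, HK1 exceeded HK2 by 2.95 and 3.63 times (4.82 and 5.94 times with the longest transcript), and the glucose transporter SLC2A1 exceeded SLC2A3 by 2.38 and 2.12 times. All 22 genes of the tricarboxylic acid cycle and 75 of 77 nuclear subunits of oxidative phosphorylation were detected.

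Among biosynthetic genes, the amino acid transporter SLC38A2 had 1552 and 1666 CPM, and the cystine transporter SLC7A11 had 365 and 336 CPM. All 19 genes of serine, glycine and proline synthesis and transport were detected. The lipid synthesis list was led by ACLY with 425 and 407 CPM and FASN with 271.5 and 262.5 CPM. In the redox list, FTL and FTH1 of ferritin had 1643 and 1641 CPM and 1230 and 1277 CPM, TXNRD1, thioredoxin reductase, had 1027 and 908 CPM, and NQO1 had 421 and 433 CPM. CYP1A1 was at 0.0305 and 0.0324 CPM with its relative CYP1B1 at 150 and 175 CPM, and per length the means were 0.0346 and 99.8 TPM.

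All 37 genes of the secretory pathway were detected, in a cell type that exports collagen. CALR, CANX and HSPA5, chaperones of the endoplasmic reticulum, had 1131 and 1086 CPM, 974 and 961.5 CPM and 894 and 818 CPM. DDIT3, a factor induced by stress of that compartment, had 8.86 and 9.10 CPM. The lysosome list was led by CTSB and PSAP, with 900 and 812 CPM and 580 and 614.5 CPM. Cytosolic ribosomal protein genes took 2.74% and 2.60% of counts, and 81 of 84 were detected, with RPL3 the most counted at 1033 and 1022 CPM. EEF1A1, the general elongation factor, had 7797 and 7529 CPM and its muscle and neuronal form EEF1A2 had 1.13 and 0.745 CPM. Their mean TPM was 2817 and 0.714, or 4354 and 0.680 with the longest transcript.

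Some low values in constitutive families are uncertain. In 5 such families (ribosomal proteins of both kinds, respiratory subunits, proteasome subunits and translation factors) 39 of 302 genes lay under a mean of 10 CPM, and 31 of these 39 shared at least 5% of their exon bases with another gene on the same strand in the later annotation. The same held for 27 of the 263 genes at 10 CPM or more. EEF1G, at 0 counts in both libraries, shared 99.7% of its exon bases with another gene, and EIF4A1, at 5.97 and 5.80 CPM, shared 47.4%. Reads on shared exons are left out as ambiguous by the counting used, which took 2.17% and 2.06% of all reads, so these genes are uncertain and not shown to be low.

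The mitochondrial genome contributed 0.600% and 0.773% of gene counts. MT-CO1, a core subunit of cytochrome c oxidase, had 3567 and 4655 CPM, or 60.0% of the counts of the 13 mitochondrial messenger RNAs. MT-CO3 had 929 and 1054 CPM, MT-CO2 413 and 538 CPM, MT-ND4 360 and 496 CPM, MT-CYB 224 and 306 CPM and MT-ND5 161 and 228 CPM. MT-ND6, the one messenger RNA of the light strand, had 82.4 and 112 CPM, and MT-ATP6, MT-ND2, MT-ND1, MT-ND3 and MT-ND4L lay between 8.74 and 108 CPM. MT-ATP8, which overlaps MT-ATP6, was at 0.457 and 0.810 CPM and is uncertain for that reason. The mitochondrial ribosomal RNAs MT-RNR1 and MT-RNR2 had 0.122 and 0.421 CPM and 0.701 and 1.00 CPM in these libraries, which were depleted of ribosomal RNA.

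Among noncoding genes a few structural RNAs held most of the counts. RN7SK, the 7SK RNA that restrains the elongation factor P-TEFb, had 12869 and 11857 CPM, and RN7SL2, a signal recognition particle RNA, had 9241 and 6919 CPM. The second most counted gene ID of the table, ENSG00000258486, was not paired with a name and had 21825 and 14288 CPM. MIR3648 and MIR3687 on chromosome 21, which are annotated as microRNA genes, had 1031 and 1170 CPM and 335 and 302 CPM, which are reads of a total RNA library and not of mature microRNA. Of 1457 snoRNA genes 23 were detected, and the U6 gene RNU6-1 and the Y RNA genes RNY1, RNY3 and RNY4 were at 0. Only uniquely mapped reads were kept, so a 0 sets no bound for a gene with near-identical copies.

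Long noncoding genes took 1.70% and 1.85% of counts, and 935 of 13037 (7.17%) were detected. The most counted, ENSG00000259001 (chr14:20811207-20811844, minus strand), has no symbol in the annotation and had 5144 and 4105 CPM. It made up 26.0% of the counts of this class, and its type is only that of the annotation. The structural RNAs RPPH1 and RMRP were not paired by name, so their reads may stand under other IDs. Which RNA gave the reads of ENSG00000259001 was not tested. MALAT1, a nuclear speckle RNA, had 3267 and 5070 CPM, and NEAT1, the scaffold of paraspeckles, had 181 and 286 CPM. NORAD, a cytoplasmic RNA that binds Pumilio proteins, was steady at 615 and 626 CPM. FENDRR, transcribed next to FOXF1 on chromosome 16 in the opposite direction, had 307 and 354 CPM, a mean of 178 TPM against 377 TPM for FOXF1, or 261 against 297 TPM with the longest transcript. TBX5-AS1, beside TBX5, had 41.2 and 48.9 CPM, a mean of 35.5 TPM against 38.98 TPM for TBX5. SNHG29, SNHG16, SNHG14 and the imprinted MEG3 lay between 123.5 and 333 CPM, whereas H19, another imprinted RNA, was at 0.426 and 0.0648 CPM.

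Strand was respected by the counts. Small RNA and pseudogene copies inside introns of expressed genes had reads in both libraries in 603 of 1025 cases (58.8%) where the copy lay on the host's strand and in 109 of 1478 cases (7.38%) where it lay opposite. A gene copy inside an intron on the host's strand can therefore hold reads of the host.

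Many genes had no reads at this depth. Of 19391 nuclear protein-coding genes 4259 (22.0%) had 0 counts in both libraries. Of these 522 shared at least 5% of their exon bases with another gene on the same strand and 381 at least 50%, EEF1G among them, so that for these genes a count of 0 does not bound the level. Among the 98 markers of other cell types at 0, 3 shared at least 5% and none 50%. A count of 0 is also no bound for genes with near-identical copies, since reads that mapped to several places were dropped. How many of the genes at 0 this covers was not counted. The genes at 0 included 344 of 369 olfactory receptors, none of which was detected, all 40 beta-defensins, all 18 late cornified envelope genes, 55 of 56 MAGE and GAGE cancer-testis genes and 15 of 17 type I interferons. Of 55 keratins 41 were at 0 and 5 were detected. Of 596 immunoglobulin and T-cell receptor segments 581 were at 0 and none was detected. In contrast 440 of 500 zinc finger genes named ZNF were detected, at a median of 9.43 and 9.96 CPM over the 500.

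The libraries resembled each other closely but not to counting error. Over the 9347 genes whose mean was 10 CPM or more, Pearson's r of log2 CPM across genes was 0.994, where genes are not independent replicates. The median absolute log2 ratio of replicate 2 over replicate 1 was 0.0938, against 0.0344 from counting alone, and the coefficient of variation beyond counting was 6.12%. Past 1.5-fold, 38 genes (0.407%) were higher and 21 (0.225%) lower in replicate 2, and 4 passed 2-fold. The largest ratios upwards were those of PDK4, a brake on pyruvate oxidation, with 7.55 and 17.4 CPM, SMOC1 with 21.5 and 46.1 CPM, RP11-1002K11.1 and SLC6A15. EREG, ALS2CL, MEDAG, AKR1C1, AKR1C2 and an ID without a name followed. Downwards they included RN7SL5P, TNFSF4, SLC7A14, DEPP1, LYPD1, FGF5, ELOVL2, CDC25A and an ID without a name, with log2 ratios from -0.78 to -0.66.

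Differences between the replicates were small gene by gene but had a common direction in several groups. All 12 mitochondrial messenger RNAs at a mean of 10 CPM or more were higher in replicate 2, with a median log2 ratio of 0.40, against 0.01 over all 9347 genes. The nuclear RNAs MALAT1 and NEAT1 were also higher there, by the values given above. In contrast, the 6 genes of the annotated type misc_RNA at that level were all lower in replicate 2, with a median of -0.45. Among these were RN7SL2 (-0.42) and RN7SK (-0.12). All 41 cytoskeletal and contractile genes at that level were lower in replicate 2, with a median of -0.20, among them ACTA2, TAGLN and CNN1 (73.7 and 48.9 CPM). Of the genes of G1/S and DNA replication 1 of 36 was higher in replicate 2 (median -0.21), and of G2, mitosis and cell division 1 of 55 (median -0.17). Of 76 cytosolic ribosomal protein genes 4 were higher in replicate 2 (median -0.07). Of 23 collagens 19 were higher (median 0.06), and of 42 matrix glycoproteins 29 (median 0.13). Over all 9347 genes 4831 were higher, and families unrelated to matrix also moved upwards, with 169 of 243 ZNF genes (median 0.07) and 86 of 128 long noncoding genes (median 0.09).

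With 2 libraries these shifts are described without a test. Other measures moved with them. Mapped reads assigned to no gene, which can include reads of introns, made up 13.4% of all reads in replicate 1 and 15.6% in replicate 2. Short genes were lower in replicate 2 than long ones, with a median log2 ratio of -0.05 in the 1843 shortest nuclear genes and 0.06 in the 1842 longest. After subtraction of the median of the genes in the same one of 5 length classes, the median was -0.19 for cytoskeletal genes, -0.20 for G1/S and -0.17 for G2 and mitosis, but 0.01 for collagens, of which 14 of 23 then lay above 0. It was 0.12 for matrix glycoproteins (29 of 42 above 0), 0.06 for ZNF genes (166 of 243) and -0.05 for ribosomal proteins (21 of 76). The part of gene length and of the reads assigned to no gene in these shifts was not tested beyond these values.

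**Figure D5:**
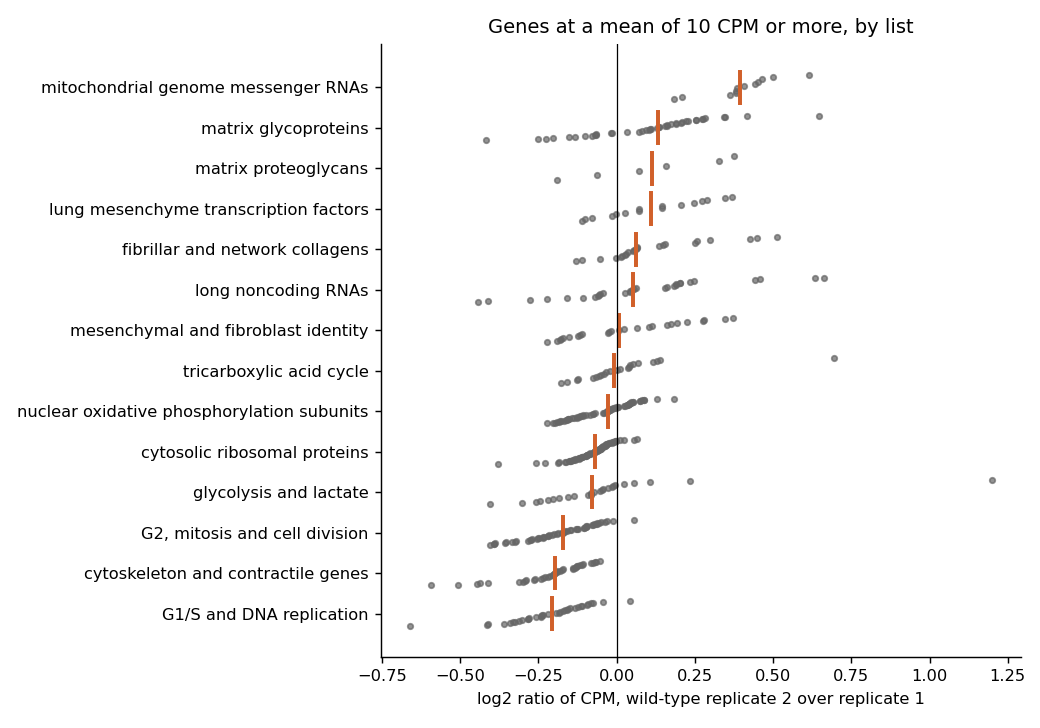
Log2 ratio of CPM, wild-type replicate 2 over replicate 1, for each gene at a mean of 10 CPM or more in 14 gene lists, with an orange bar at each list's median and a line at 0. The 12 mitochondrial messenger RNAs lie to the right of 0 and the 41 cytoskeletal genes to the left of it, as do all but 1 gene in each of the cell division lists.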

How the data were processed

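RNA was isolated from wild-type IMR-90 cells, depleted of ribosomal RNA and made into directional libraries. The authors mapped reads with STAR on GRCh37 and kept only uniquely mapped reads. The submitters' processing notes give STAR 2.7.2b. The deposited values are raw counts of reads per GENCODE v19 gene, not normalized. The strand setting is not stated. The 99 spike-in lines and 4 summary lines of the table stayed out of the totals, and unmapped reads were 9.03% and 8.89% of all reads.

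Names, gene types and lengths came from GENCODE v44 mapped to GRCh37, which paired 55538 of the 57820 IDs. The other 2282 held 3.11% and 2.35% of counts, and 2 of the 20 most counted genes were among these or lacked a symbol. CPM used the gene total of each library. TPM used the union of exons. No test between groups was run. The replicates differed by more than sampling noise (chi-square per degree of freedom 18.8 over 14531 genes), so both were counted. The spread estimate was checked on simulated counts.

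The members, the 36 gene lists and the 16 families were chosen with earlier results of these data known. Genes named are the 5 markers, the 20 highest nuclear protein-coding genes by CPM and 10 by TPM, mitochondrial messenger and ribosomal RNAs, the highest noncoding genes, up to 6 leading members of a list with its defining genes under 1 CPM, 10 fixed pairs, all lung mesenchyme factors and HOX genes, and the 10 largest ratios between libraries in each direction, with Y-linked genes and XIST left out. Some genes are not reported here and were left out of the lists. Further list members, such as ELN, MMP1, IL6, RB1, MYOCD and ACTA2, were named after their values were seen, as were the motifs and the shared exons. Alternatives were other totals, TMM factors (edgeR 4.0.16 in R 4.3.3), other detection limits, the longest transcript as length, and leaving out each library. Python 3.11.15 with pandas 2.3.3 was used.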

Additional observations from a re-analysis of the deposited data

Results flagged for a closer look

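The table holds counts of spike-in RNAs, which no result above uses. ERCC spike-in lines held 0.187% of the gene counts in wild-type replicate 1 and 0.135% in replicate 2, and SIRV spike-in lines held 0.188% and 0.135%. These are 61494 and 41580 ERCC counts and 61561 and 41737 SIRV counts, above the 3 counts that a count of 0 allows. Relative to gene counts, both kinds were lower in replicate 2, by a ratio of 0.719 for ERCC and 0.721 for SIRV. All 18 ERCC lines and all 7 SIRV lines with at least 100 counts in each library were lower in replicate 2, with median log2 ratios of -0.46 and -0.48. How much spike-in was added to how much RNA is not given in the sources used here.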

How the results depend on the processing

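Under other totals, limits and libraries, 41 of 45 shares, counts and spreads moved by less than the spread between the libraries, or by less than 1.5 times for counts. A further 17 could not move past that bar by construction and say nothing of stability (a share without 1 of 2 libraries, and a count of genes at 0 after rescaling). Of 10 TPM ratios 8 moved further and 1 turned with the length of the longest transcript. Without mitochondrial and small structural RNA genes the 10 most counted genes held 12.6% of counts instead of 12.96%. The number of detected genes was 27485 with at least 1 count in either library, and the number of other cell type markers was then 114, against 21 at 5 CPM and 38 at 1 CPM. With the longest transcript the ratio of COL4A1 to COL4A2 turned from 1.29 to 0.967. That of HK1 to HK2 moved from 3.29 to 5.38 and that of EEF1A1 to EEF1A2 from 4082 to 6628. With 1 library left out, detected genes ranged from 13450 to 13612, the matrix share from 13.9% to 14.9%, the cell division share from 0.510% to 0.573%, the mitochondrial share from 0.600% to 0.773%, and markers of other cell types from 39 to 41. The mitochondrial share has no value without mitochondrial genes, nor the spread with 1 library. No paired analysis was possible because the results come from 1 group and from no test. Depth limits values near 1 CPM, and a count of 0 bounds a level only where exons are not shared and reads map uniquely.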
